A study of Arabidopsis thaliana with 12 samples.

Results

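Transcript levels in whole rosettes were compared between the Arabidopsis (Arabidopsis thaliana) accessions Cvi-0 (Cvi) and Shahdara (Sha) in clean air (CA), as a baseline difference that is present before any ozone (O3) is given. All genes with a count in any of the 6 CA libraries entered the comparison, 26862 of the 28549 genes with a count anywhere in the 12 libraries of the series. RNA sequencing (RNA-seq) had been done on 3 libraries of Cvi in CA and 3 libraries of Sha in CA, each from a pool of 4 rosettes of 3-week-old plants. These plants were kept in CA for 2 h as the control of an exposure to 350 nL L-1 O3. Both groups are natural, unmodified accessions that differ, by their labels, in genotype alone, and each accession was represented by a single inbred line. The study treats both as O3-sensitive, so neither is a tolerant control of the other.

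Natural accessions of Arabidopsis are inbred lines collected at different places, Cvi on the Cape Verde Islands and Sha in the Pamir mountains of Central Asia. Their genomes differ by single base changes and by whole genes that are deleted, duplicated or moved. Families that act against pathogens and herbivores, such as immune receptors, glucosinolate enzymes and small antimicrobial proteins, are known for especially large variation among accessions, and so are the regulators of flowering time.

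Levels are given as CPM, counts scaled to a common normalised library total. A gene was called when edgeR found a change beyond 1.2-fold between the accessions at a Benjamini-Hochberg false discovery rate of at most 0.05, and log2 fold changes are Cvi over Sha, written with ± their standard error (SE). Library totals were 23774431 to 33572001 counts in Cvi and 10794727 to 27895725 counts in Sha. Ribosomal RNA took 0.286, 0.264 and 0.583% of the counts in Cvi, against 0.608, 3.98 and 2.21% in Sha. Chloroplast-encoded genes took 0.212 ± 0.164% in Cvi and 0.859 ± 0.567% in Sha (SD, n = 3 each), with overlapping libraries (exact permutation test, two-sided p = 0.2, where 0.1 is the smallest possible). Replicate 2 of Sha stood apart in both shares, and also in ribosomal protein transcripts, described at the end. Markers of rosette leaves, 6 genes that check the tissue label, summed to 52110 to 58010 CPM in Cvi and 35460 to 49330 CPM in Sha. edgeR called 0 of these 6 and 0 of 3 seed markers, with 1 leaf marker and 0 seed markers at an unadjusted p under 0.05 and 0 of either called by DESeq2. Without a minimum change, or with a filter on low counts before the fit, edgeR called 1 leaf marker as lower. Of 6 root markers 1 was called, TIP2;3, a call lost with a replicate block (edgeR adjusted p = 0.0501) and without any single library other than Cvi replicate 3 (0.0538 to 0.172).

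The test called 2523 genes as higher in Cvi and 2649 as lower, 18.1% of the 28549 genes tested (8.84% higher and 9.28% lower) and 19.3% of the 26862 genes counted in CA. The called genes were spread over the genome, with 18.1 to 20.5% of the counted genes called on each of the 5 chromosomes. Among them 2 kinds were kept apart. The first kind had no count in any library of 1 accession and at least 1 CPM in each library of the other, while graded genes had more than 3 counts in each of the 6 libraries and differed in the number of assigned reads. Without the minimum of 1 CPM, 2005 genes had no count in Sha (454 of them called, all higher in Cvi) and 1520 had no count in Cvi (402 called, all lower). The Sha libraries held 10794727, 13135053 and 27895725 counts, against 33572001, 27938919 and 23774431 in Cvi. The part of this depth in the numbers without a minimum was not tested. The called genes that met neither definition included the rest of these called genes without a count in an accession.

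No count in any Sha library was found for 93 genes that had at least 1 CPM in every Cvi library, and no count in any Cvi library for 59 genes that had at least 1 CPM in every Sha library. The genes without a count in Sha were 63 protein-coding genes, 26 pseudogenes and 4 other RNA genes. Those without a count in Cvi were 24 protein-coding genes, 31 pseudogenes and 4 other RNA genes. All 152 passed the test, which their definition by level nearly fixes. At the chosen level a gene would have been given 11 counts in the smallest Sha library. The first set took 0.144, 0.191 and 0.186% of all counts in the Cvi libraries, and the second took 0.0358, 0.0404 and 0.0397% of all counts in the Sha libraries.

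Col-0, another accession, supplied the transcript set to which the authors assigned all reads. A gene that Sha or Cvi lacks, a gene that is silent there and a gene whose sequence has diverged too far for its reads to be assigned therefore cannot be told apart. The O3 libraries, which played no part in choosing these genes, gave a second look. In Sha in O3, 63 of the 93 genes again had no count in any of 3 libraries, 90 had at most 3 counts in each, and none rose above 3 counts in every library. In Cvi in O3, 42 of the 59 had no count, 57 had at most 3 counts in each library, and none rose above that in all of them.

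Genes with close copies were more frequent in both sets. The share of a gene's 31-base words that occur in no other annotated gene was below 50% for 15 of the 93 genes (16.1%) and 10 of the 59 genes (16.9%), against 600 of 18421 genes (3.28%) with at least 1 CPM in every library of an accession. For such genes a read could have been credited to a copy. The words are those of the Col-0 genome, so this share does not describe the sequence in Cvi or Sha. The medians were 97.1 and 93.5%, against 100% for the 18421 genes. At least 95% of the words were their own for 52 of the 93 genes (55.9%) and 28 of the 59 (47.5%). Among the 18421 genes that share was 80.5%. Most of the genes without a count lay singly. Only 4 pairs of neighbouring genes lacked counts in Sha and 1 pair lacked counts in Cvi. In the pair AT4G19470 and AT4G19485 (chromosome 4, 10612993 to 10615332 in TAIR10.1) AT4G19470 encodes a leucine-rich repeat protein. The pair of AT14A genes, AT3G28290 and AT3G28300 on chromosome 3, shares all its sequence, and its values of 4.99, 5.68 and 5.18 CPM in Cvi are therefore a split of 1 signal.

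The protein-coding gene with the most counts in Cvi among those without a count in Sha was AT5G42530, which encodes a small protein of unknown function (chromosome 5, 17004738 to 17005510, minus strand). It had 700.0, 1233.8 and 1183.7 CPM in the Cvi libraries against 0 in all 3 Sha libraries, at least 5256.7-fold more. In O3 it had 423, 376 and 347 CPM in Cvi and again 0 in each Sha library. Its nearest relative by shared sequence was AT2G25510 (chromosome 2, 10856271 to 10857217, plus strand), also of unknown function. That gene had 205, 421 and 449 CPM in Cvi against 2.18, 3.92 and 2.75 CPM in Sha (log2 fold change 6.92 ± 0.31, edgeR adjusted p = 3.62e-72). Both members of this pair were thus high in all 3 Cvi libraries and absent or close to absent in all Sha libraries. Their coding sequences are printed to show how far a gene without a count in Sha resembles its relative with a low count there. Capitals mark runs of at least 12 bases that the sequences share, 47 bases in each (RefSeq, TAIR10.1), and AT2G25510 is shown up to base 300.
AT5G42530: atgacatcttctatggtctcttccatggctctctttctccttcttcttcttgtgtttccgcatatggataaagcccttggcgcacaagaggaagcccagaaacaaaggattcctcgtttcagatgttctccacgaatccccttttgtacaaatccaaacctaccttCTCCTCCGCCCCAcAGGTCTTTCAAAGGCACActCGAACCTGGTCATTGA
AT2G25510: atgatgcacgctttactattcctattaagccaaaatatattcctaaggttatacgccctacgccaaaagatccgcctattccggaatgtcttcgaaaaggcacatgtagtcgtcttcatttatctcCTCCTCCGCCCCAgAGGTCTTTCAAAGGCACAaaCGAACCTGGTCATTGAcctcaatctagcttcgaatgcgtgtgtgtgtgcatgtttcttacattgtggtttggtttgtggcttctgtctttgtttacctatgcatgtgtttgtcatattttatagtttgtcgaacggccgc
The coding sequence of AT5G42530 has 216 bases in 2 exons and that of AT2G25510 has 312 bases in 1 exon, and 144 of 313 aligned positions were identical. The coding sequences had no 31-base word in common, and over the whole transcripts 97.0% of the words of AT5G42530 and 97.8% of those of AT2G25510 were their own.

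Thionins are small, cysteine-rich proteins that damage microbial membranes. AT1G66100, a plant thionin on chromosome 1 (24605538 to 24606722), had 95.5, 120 and 51.1 CPM in Cvi against 0 in each Sha library, at least 449-fold more (edgeR adjusted p = 4.70e-79). THI2.2 (AT5G36910, chromosome 5, 14561743 to 14562863), a thionin of the same family, had 433, 474 and 389 CPM in Cvi against 2.99, 2.4 and 2.44 CPM in Sha (log2 fold change 7.38 ± 0.25, edgeR adjusted p = 2.84e-130). The lowest Cvi library was far above the highest Sha library for both genes. Another member, THI2.1 (AT1G72260), was barely counted in either accession, at 0.282, 0.271 and 0.174 CPM in Cvi and 0.181, 0.0727 and 0.0687 CPM in Sha, and was not called. The coding sequences are shown from the first to the last cysteine codon, so that their likeness can be judged, with the 12 in-frame cysteine codons (TGT or TGC) of each in capitals (RefSeq, TAIR10.1).
AT1G66100: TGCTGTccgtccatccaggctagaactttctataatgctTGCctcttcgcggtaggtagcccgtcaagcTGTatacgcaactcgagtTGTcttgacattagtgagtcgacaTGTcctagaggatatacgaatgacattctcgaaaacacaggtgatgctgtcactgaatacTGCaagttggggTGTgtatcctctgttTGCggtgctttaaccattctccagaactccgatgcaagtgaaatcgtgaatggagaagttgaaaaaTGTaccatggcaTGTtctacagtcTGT
THI2.2: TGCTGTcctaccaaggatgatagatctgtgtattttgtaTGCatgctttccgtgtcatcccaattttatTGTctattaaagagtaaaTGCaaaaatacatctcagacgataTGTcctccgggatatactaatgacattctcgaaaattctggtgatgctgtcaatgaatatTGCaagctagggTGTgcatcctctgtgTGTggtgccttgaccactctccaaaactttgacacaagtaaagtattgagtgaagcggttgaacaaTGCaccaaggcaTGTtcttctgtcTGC
THI2.1: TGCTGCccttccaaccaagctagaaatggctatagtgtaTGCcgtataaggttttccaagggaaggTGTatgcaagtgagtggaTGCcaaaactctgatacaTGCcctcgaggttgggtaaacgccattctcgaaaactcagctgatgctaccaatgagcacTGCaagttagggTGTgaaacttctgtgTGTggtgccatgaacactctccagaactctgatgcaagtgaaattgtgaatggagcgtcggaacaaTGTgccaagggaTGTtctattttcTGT
Each whole coding sequence has 405 bases in 3 exons, and each pair was identical at 70.2 to 71.6% of aligned positions. None of the 3 shared a 31-base word with another. Among all 47 defensins and thionins with a count, 6 were higher and 5 lower in Cvi (23.4%, against 19.3% of all genes counted in CA).

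Other protein-coding genes without a count in Sha were of mixed function. AT5G45095, of unknown function, had 49.1, 45.0 and 47.7 CPM in Cvi, at least 239-fold more than in Sha (edgeR adjusted p = 1.89e-175). AT2G05642, an OB-fold nucleic acid-binding protein, had 48.1, 50.1 and 42.5 CPM in Cvi, at least 237-fold more. AT3G47250, a putative membrane protein of the DUF247 family, had 37.5, 41.3 and 35.5 CPM there, at least 193-fold more. These levels varied little among the Cvi libraries. Further genes were AT2G43960 with a SWAP domain (at least 177-fold), AT2G47570 for the ribosomal protein L18 (at least 118-fold), CCT2 for an enzyme of phosphatidylcholine synthesis (at least 85.7-fold), the cytochrome P450 gene AT5G51900 (at least 51.0-fold), the F-box gene AT5G56380 (at least 47.9-fold) and ABCA5, an ABC transporter (at least 13.9-fold). AT3G61030, a calcium-dependent lipid-binding protein with 24.6, 32.6 and 25.1 CPM in Cvi, held 17.4% unique 31-base words, so its reads could have been exchanged with a copy. The pseudogene with the most counts was AT5G19097, with 24.9, 26.6 and 23.7 CPM in Cvi (at least 127-fold).

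Without a count in Cvi, a smaller set with lower levels was found. RPM1 (AT3G07040, chromosome 3, 2225855 to 2229555), the immune receptor that detects Pseudomonas syringae effectors through the host protein RIN4, had 0 in all 3 Cvi libraries against 10.6, 12.0 and 11 CPM in Sha, at least 98.7-fold less in Cvi (edgeR adjusted p = 1.55e-93). AT3G43574, annotated as β-galactosidase-like, had 0 in Cvi against 17.6, 8.5 and 16.6 CPM in Sha (at least 125-fold less). The Sha libraries of RPM1 agreed closely, whereas replicate 2 of Sha was the low library for AT3G43574. The aspartyl protease gene AT3G30770 was at least 64.9-fold lower, AT4G16957 at least 62.3-fold, the ABC transporter-like gene AT3G21080 at least 61.6-fold and VFB3, an F-box gene, at least 50.4-fold. HRGP1, a hydroxyproline-rich cell wall glycoprotein, was at least 28.3-fold lower, and so were, by smaller limits, the terpene synthase genes AT3G29410 and AT4G20210 (at least 14.5-fold and 13.6-fold), the oligopeptide transporter OPT9 (at least 13.2-fold) and the immune receptor gene AT4G09430 (at least 12.7-fold). Among pseudogenes AT2G04290 had the most counts, with 0 in Cvi against 38.2, 63.5 and 47.7 CPM in Sha. AT5G49645, with 9.34, 7.78 and 11.3 CPM in Sha, held 3.99% unique 31-base words and could have been credited to a copy.

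**Figure D1:**
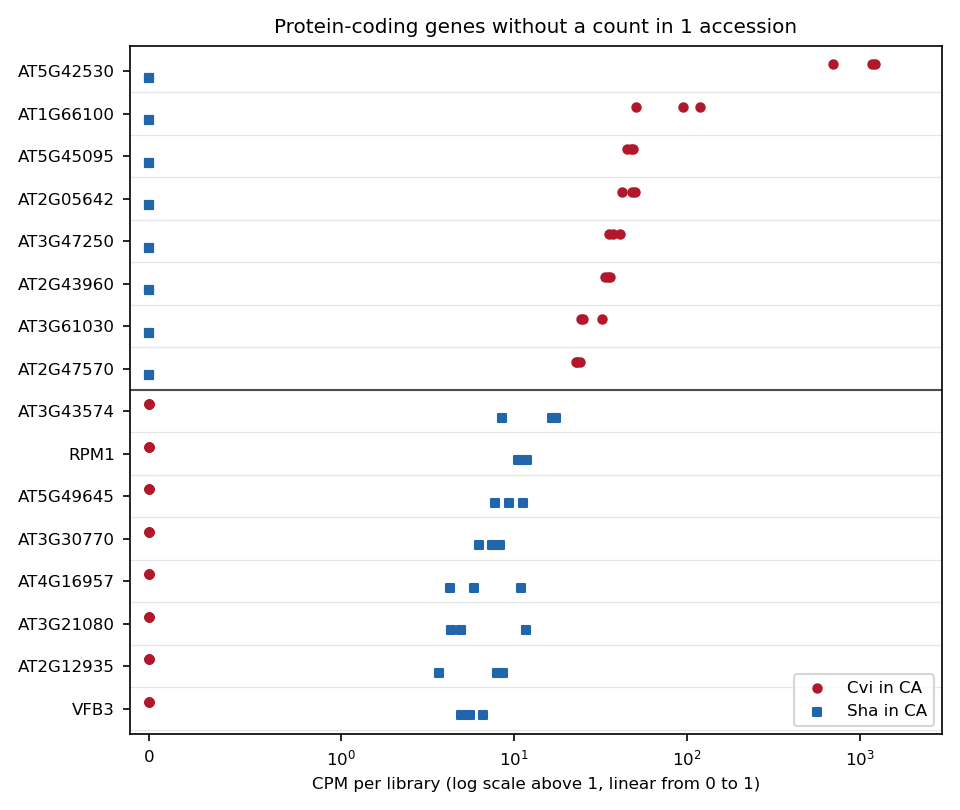
CPM per library (x axis, log scale above 1 and linear from 0 to 1) of the 8 protein-coding genes with the highest levels among those without a count in Sha (upper rows) and in Cvi (lower rows), with Cvi as dots and Sha as squares. AT5G42530 reached 700.0 to 1233.8 CPM in Cvi with all 3 Sha squares at 0, while the lower rows reached 17.6 CPM in Sha at most, with all 3 Cvi dots at 0.

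Graded genes made up 70.6% of the genes counted in CA (18954), and 1500 of them were higher and 1722 lower in Cvi, 17% of the graded genes (7.91% and 9.09%). Most graded differences were moderate, with a median absolute log2 fold change of 1.12 among the called genes and 0.30 among all graded genes. Under 2-fold were 699 of the higher and 623 of the lower genes, and 584 and 793 differed between 2-fold and 4-fold. Only 20 genes higher and 34 genes lower in Cvi differed by 16-fold or more. Divergence from Col-0 could lower the count of a graded gene too, and its part in these differences was not tested.

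**Figure D2:**
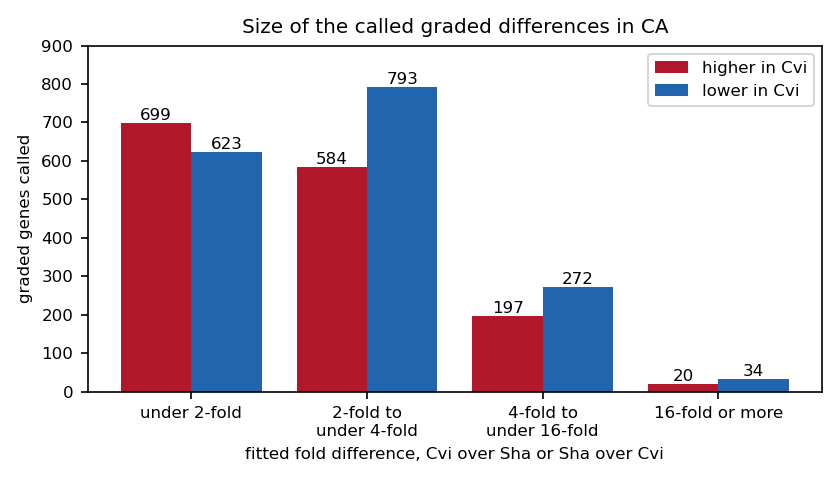
Number of called graded genes (y axis) by the size of the fitted fold difference (x axis), with genes higher in Cvi left of genes lower in Cvi in each pair of bars. The bars fall to 20 and 34 genes at 16-fold or more, and in every class above 2-fold more genes were lower than higher in Cvi.

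THI2.2 and AT2G25510, given above, had the largest graded differences toward Cvi among protein-coding genes averaging 1 CPM or more in Sha. UAP56a (AT5G11170), an RNA helicase of the mRNA export machinery, had 175, 148 and 163 CPM in Cvi against 1.27, 1.31 and 2.4 CPM in Sha (log2 fold change 6.52 ± 0.28, edgeR adjusted p = 1.24e-89). It shares sequence with a second copy, AT5G11200, and 67.3% of its 31-base words were its own. SCPL12, a serine carboxypeptidase-like protein, had 59.6, 82.9 and 55.1 CPM in Cvi against 1.18, 3.13 and 0.927 CPM in Sha (log2 fold change 5.27 ± 0.36). AER, an alkenal reductase that detoxifies reactive carbonyls, had 58.5, 65.9 and 59.0 CPM in Cvi against 2.0, 2.91 and 0.79 CPM in Sha (5.07 ± 0.34). The genes were chosen among those without overlap of the accessions, a property of 39.5% of all genes counted in CA, so their separation is part of the choice. The glutamate receptor gene GLR2.7 (4.82 ± 0.44) and AT2G03965, of unknown function (5.86 ± 0.19), were also among them.

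In the other direction, CYP72A8 (AT3G14620, chromosome 3, 4914789 to 4917176), a cytochrome P450, had 0.91, 1.43 and 1.66 CPM in Cvi against 101, 115 and 109 CPM in Sha (log2 fold change -6.37 ± 0.21, edgeR adjusted p = 7.40e-173). XDH2, a xanthine dehydrogenase of purine breakdown, had 2.07, 2.75 and 2.48 CPM in Cvi against 31.5, 33.1 and 44.5 CPM in Sha (-3.91 ± 0.21). AT5G21020, of unknown function, had 1.85, 1.7 and 1.39 CPM in Cvi against 52.4, 123 and 66.3 CPM in Sha (-5.60 ± 0.38). Chosen in the same way, AT4G13575 (-4.17 ± 0.46) and AT4G07868 (-3.82 ± 0.23), both of unknown function, were lower as well.

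**Figure D3:**
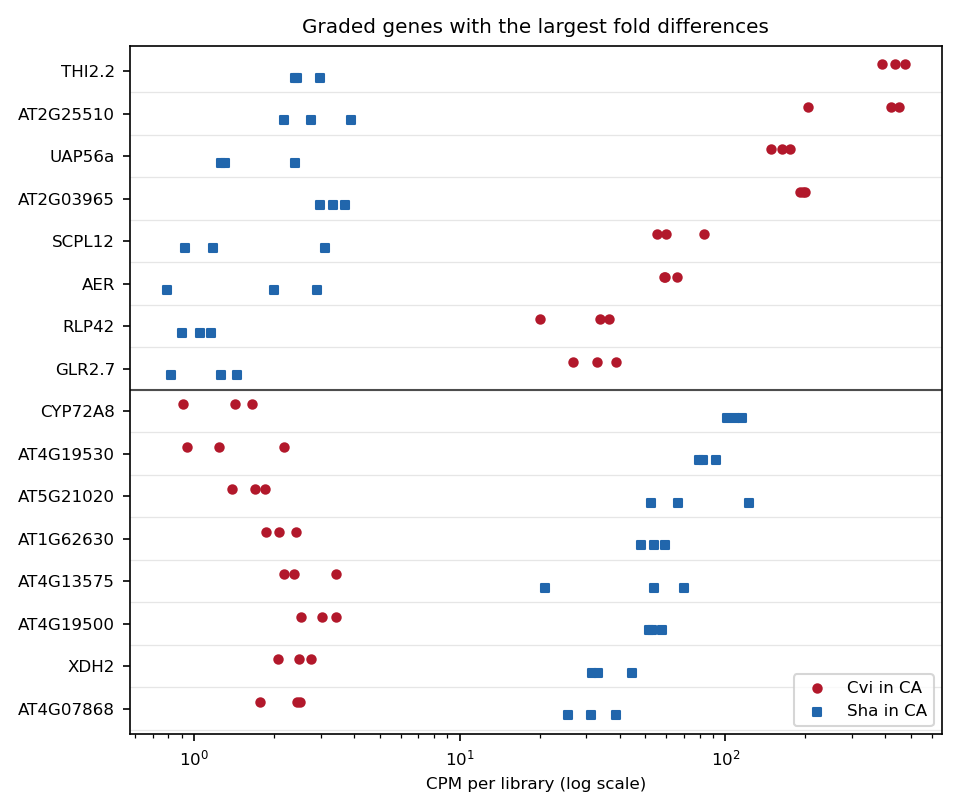
CPM per library (x axis, log scale) of the 8 protein-coding graded genes with the largest fold differences in each direction among those with at least 1 CPM in the lower accession and without overlap, with Cvi as dots and Sha as squares. THI2.2 was at 389 to 474 CPM in Cvi and 2.4 to 2.99 CPM in Sha, and CYP72A8 at 0.91 to 1.66 CPM in Cvi and 101 to 115 CPM in Sha.

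Immune receptors were among the most divided gene families. NLR receptors, which carry a nucleotide-binding and a leucine-rich repeat domain and detect pathogen effectors inside the cell, had 29 of 143 members higher and 48 lower in Cvi (53.8%, against 19.3% of all genes counted in CA). The median absolute log2 fold change of their graded members was 0.83, against 0.30 for all graded genes. Receptor-like proteins, which sit in the plasma membrane without a kinase domain, had 8 of 50 members higher and 21 lower (58%), with a graded median log2 fold change of -0.69. Cysteine-rich receptor-like kinases, which have an extracellular domain rich in cysteines, had 4 of 36 members higher and 12 lower (44.4%), with a graded median of -0.67. The median over all genes tested was 0.00. The shares of all further lists are to be read against the same 19.3%.

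**Figure D4:**
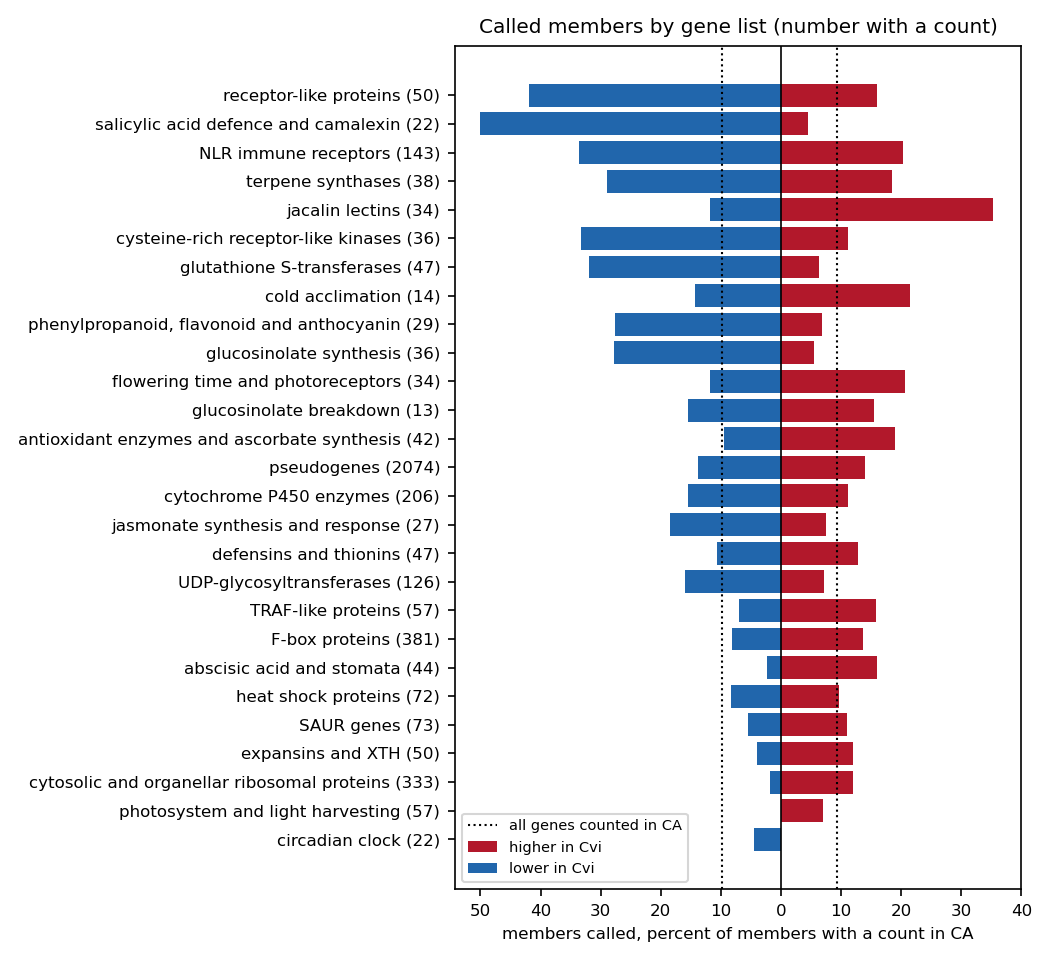
Percent of the counted members of each gene list that were lower (left of 0) and higher (right of 0) in Cvi, with the number of counted members in brackets and dotted lines at the shares over all genes counted in CA. Receptor-like proteins and genes of salicylic acid defence reach 58 and 54.5% in both directions together, against 4.55% in the circadian clock.

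A receptor pair was among the NLR genes with the largest falls in Cvi. RPS4 (AT5G45250, chromosome 5, 18321764 to 18326175) and RRS1 (AT5G45260, 18326203 to 18332920) lie head to head and act together as a receptor of bacterial and fungal effectors. RPS4 had counts of 3, 3 and 0 in the Cvi libraries (0.0941, 0.116 and 0 CPM) against 10.6, 13.7 and 12.0 CPM in Sha (edgeR adjusted p = 2.35e-95). RRS1 also had counts of 3, 3 and 0 in Cvi against 19.5, 20.9 and 17.7 CPM in Sha (edgeR adjusted p = 1.15e-121). The pair was thus close to the limit of detection in every Cvi library and present in every Sha library. AT4G19530, with a TIR domain at its start, had 0.941, 1.24 and 2.18 CPM in Cvi against 82.5, 79.7 and 91.8 CPM in Sha (log2 fold change -5.88 ± 0.34), and AT1G62630, with a coiled-coil domain, had 2.42, 2.09 and 1.87 CPM in Cvi against 48.2, 59 and 53.9 CPM in Sha (-4.65 ± 0.18). ADR1, a helper receptor that acts downstream of other NLRs, had 8, 9.24 and 9.54 CPM in Cvi against 14.4, 25.3 and 17 CPM in Sha (-1.08 ± 0.25).

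Other NLR genes were higher in Cvi. AT5G51630 had 9.85, 11.3 and 7.49 CPM in Cvi against 0, 0 and 0.103 CPM in Sha (edgeR adjusted p = 3.82e-55). AT3G44670 had 97.6, 116 and 96.5 CPM in Cvi against 10.3, 17 and 10.1 CPM in Sha (log2 fold change 3.05 ± 0.22, edgeR adjusted p = 4.14e-33), with 51.5% of its 31-base words its own. AT1G61190 had 40.3, 45.7 and 36.9 CPM in Cvi against 6.8, 8.14 and 8.86 CPM in Sha (2.35 ± 0.16). Each was higher in every Cvi library than in any Sha library.

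Some neighbouring NLR genes differed in opposite directions. NLR genes less than 100 kb apart formed 31 neighbourhoods holding 113 genes, of which 9 had calls in both directions, 3 had higher genes only, 11 had lower genes only and 8 had no call. On chromosome 4 (9482429 to 9565569), the neighbourhood of RPP5, a receptor of downy mildew, had 5 of 9 genes higher and 2 lower. Here SNC1 (AT4G16890), whose raised level is known to cause autoimmunity in Col-0, had 40.3, 48.3 and 41.4 CPM in Cvi against 13.5, 14.8 and 10.3 CPM in Sha (log2 fold change 1.77 ± 0.17). AT4G16940 had 14, 17.5 and 14.9 CPM in Cvi against 0.272, 0.509 and 0.24 CPM in Sha (5.58 ± 0.39). RPP5 (AT4G16950) itself had 16.5, 19.2 and 15 CPM in Cvi against 54.6, 73.3 and 54.1 CPM in Sha (-1.84 ± 0.18). The accessions did not overlap for these 3 genes, but the members share sequence, with 68.3, 66.6 and 46.2% of their 31-base words their own, and reads could have passed between them. AT4G16957, without a count in Cvi, falls by its locus number between RPP5 and AT4G16960. On chromosome 4 (10633619 to 10657282) all 3 genes were lower in Cvi, AT4G19510 (-1.69), AT4G19520 (-5.56) and AT4G19530 (-5.88 on the log2 scale), each with at least 99.9% of its 31-base words its own. AT4G19500, annotated as a transmembrane receptor next to them, was lower too (-4.17 ± 0.17).

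On chromosome 1 (21690642 to 21999632), 2 of 10 NLR genes were higher and 7 lower in Cvi. AT1G58602 had 149, 227 and 194 CPM in Cvi against 45.1, 57.6 and 49.5 CPM in Sha (log2 fold change 1.91 ± 0.20), while AT1G58410 had 0.0314, 0.155 and 0.0436 CPM in Cvi against 8.43, 11.8 and 6.87 CPM in Sha (-6.80 ± 0.63). AT1G58807 and AT1G59124 in this neighbourhood have no sequence of their own, so their low values in Cvi cannot be assigned to either. The third large neighbourhood, on chromosome 5 (18114461 to 18332920), holds RPS4 and RRS1 at its end, with 1 of 11 genes higher and 4 lower. Its only higher gene, TTR1, had 29.9, 34.4 and 28.7 CPM in Cvi against 19.9, 22.7 and 20.9 CPM in Sha (0.55 ± 0.15, edgeR adjusted p = 0.0374), a call that was lost without Cvi replicate 1 (edgeR adjusted p = 0.0615), Cvi replicate 2 (0.151), Sha replicate 1 (0.0996) or Sha replicate 3 (0.179).

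**Figure D5:**
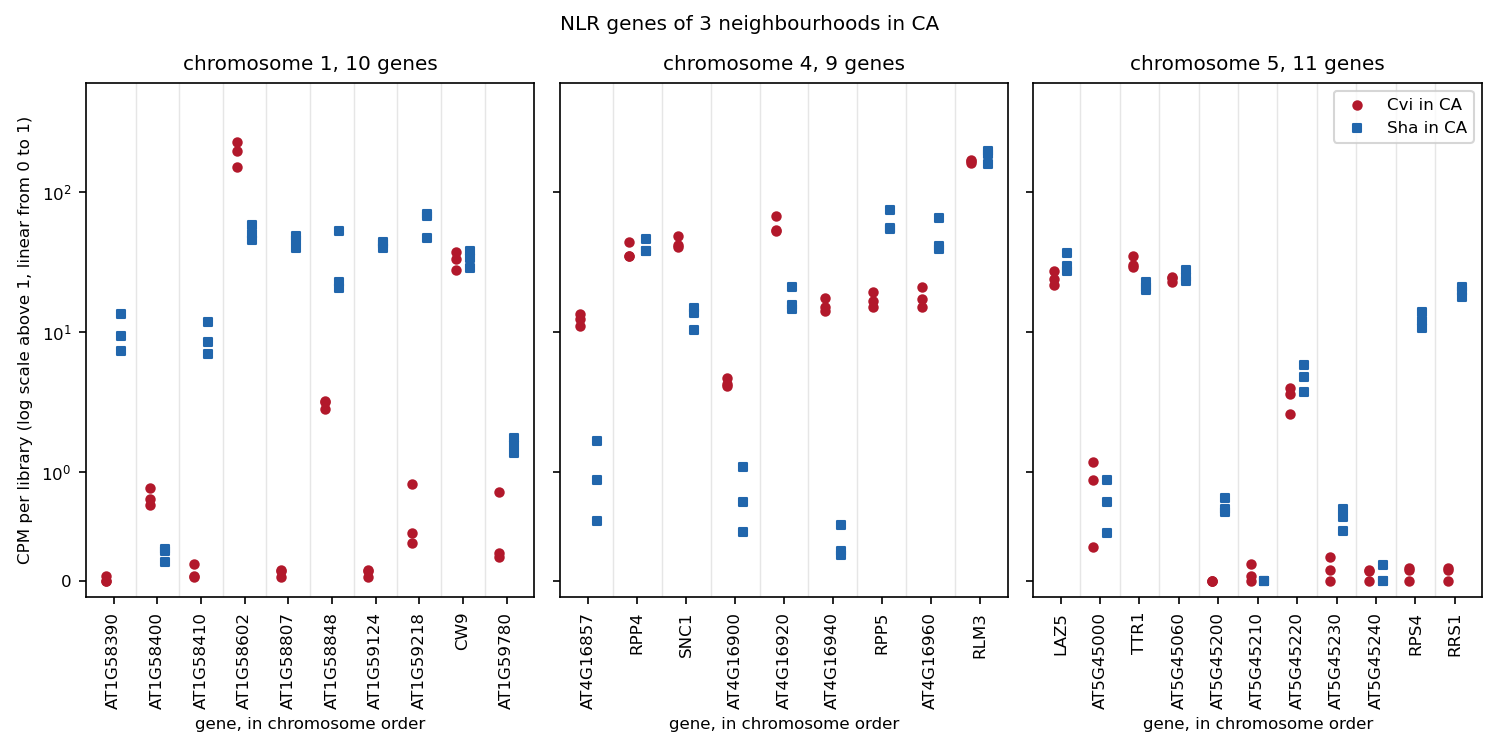
CPM per library (y axis, log scale above 1 and linear from 0 to 1) of the NLR genes of the 3 neighbourhoods with most members, in chromosome order, with Cvi as dots left of Sha as squares. RPS4 and RRS1 at the right end are at or below 0.116 CPM in Cvi and at 10.6 to 20.9 CPM in Sha, and in the middle panel SNC1 and AT4G16940 are higher in Cvi and RPP5, which follows them, is lower.

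Among receptor-like proteins, RLP42, which recognises fungal endopolygalacturonases, had 20, 36.4 and 33.8 CPM in Cvi against 0.907, 1.16 and 1.06 CPM in Sha (log2 fold change 4.83 ± 0.30, edgeR adjusted p = 8.34e-53). Its sequence is shared in part with a neighbouring locus, and 54.9% of its 31-base words were its own. RLP34 had 0.0941, 0 and 0 CPM in Cvi against 12.4, 24.8 and 14 CPM in Sha (edgeR adjusted p = 2.40e-32). RLP1 (4.17 ± 0.57) and RLP19 (2.03 ± 0.26) were also higher in Cvi, and RLP14 (-4.14 ± 0.35) and RLP36 (-3.26 ± 0.29) lower. Among the kinases, CRK41 had 0.251, 0.232 and 0.305 CPM in Cvi against 18.5, 15.8 and 27 CPM in Sha (log2 fold change -6.27 ± 0.40, edgeR adjusted p = 4.27e-61). CRK21 had 12.4, 11 and 9.28 CPM in Cvi against 60.4, 68.6 and 67.5 CPM in Sha (-2.58 ± 0.18). CRK27 went the other way, with 2.13, 2.17 and 1.52 CPM in Cvi against 0.363, 0.145 and 0.172 CPM in Sha (3.21 ± 0.50). CRK20 (1.86 ± 0.33) and CRK28 (0.98 ± 0.19) were higher as well.

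Salicylic acid is the hormone of defence against biotrophic pathogens, and camalexin is an indole-derived antimicrobial compound of Arabidopsis. Of 22 genes of salicylic acid defence and camalexin synthesis, 11 were lower and 1 was higher in Cvi (54.5%), with a graded median log2 fold change of -0.73. The exception was ACD6 (AT4G14400, chromosome 4, 8294165 to 8299195), an ankyrin-repeat membrane protein that promotes salicylic acid signalling and cell death. It had 304, 578 and 641 CPM in Cvi against 60.1, 119 and 86.8 CPM in Sha (log2 fold change 2.52 ± 0.29, edgeR adjusted p = 4.52e-13). Every Cvi library was above every Sha library.

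FMO1 and ALD1, which act in the synthesis of the mobile immune signal N-hydroxypipecolic acid, were both lower. FMO1 had 0.125, 0.0773 and 0 CPM in Cvi against 7.25, 1.67 and 3.78 CPM in Sha (log2 fold change -5.76 ± 0.86, edgeR adjusted p = 2.57e-10). ALD1 had 0.659, 0.271 and 0.436 CPM in Cvi against 12.6, 2.33 and 6.53 CPM in Sha (-3.94 ± 0.59, edgeR adjusted p = 3.03e-08). Replicate 2 of Sha was the lowest Sha library for both, and still above all Cvi libraries. The camalexin enzymes moved the same way. CYP71A13 had 3.98, 0.812 and 6.32 CPM in Cvi against 57, 9.38 and 40.7 CPM in Sha (-3.27 ± 0.63), and PAD3 had 3.11, 1.7 and 7.89 CPM in Cvi against 47.7, 12.8 and 39.6 CPM in Sha (-2.98 ± 0.49). Of the 31-base words of CYP71A13, 71.1% were its own. CBP60G, a transcription factor of salicylic acid synthesis, had 2.23, 4.37 and 4.27 CPM in Cvi against 12.9, 12.6 and 12.5 CPM in Sha (-1.81 ± 0.26). EDS16, the isochorismate synthase (-0.95 ± 0.25), EDS5, the transporter of its product (-1.63 ± 0.34), SAG101, a partner of EDS1 (-0.86 ± 0.19), and SAG13 (-2.27 ± 0.50) were lower as well. Not called were EDS1 itself (-0.22 ± 0.26), PAD4 (-0.01 ± 0.32), NPR1 (0.12 ± 0.18), SARD1 (-0.01 ± 0.37) and WRKY70 (0.28 ± 0.41). The same held for PBS3 (-0.52 ± 0.33), NUDT6 (-0.73 ± 0.26) and AT5G52810, a Rossmann-fold protein of this list (0.35 ± 0.21).

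The marker PR1 had 20.5, 7.15 and 51.1 CPM in Cvi against 271, 34.3 and 265 CPM in Sha (log2 fold change -2.86 ± 0.82, edgeR adjusted p = 0.0105). The accessions overlapped through replicate 2 of Sha and replicate 3 of Cvi, and the call was lost without Cvi replicate 1 (edgeR adjusted p = 0.0705) and without Cvi replicate 2 (edgeR adjusted p = 0.0722). BGL2, a β-1,3-glucanase (0.18 ± 0.30), and PR5, another pathogenesis-related protein (0.61 ± 0.32), were not called. SAG12, a cysteine protease that marks late leaf senescence, had 0 in all Cvi libraries against 6.44, 0.145 and 3.5 CPM in Sha, at least 29.6-fold less in Cvi (edgeR adjusted p = 1.43e-07), and the other 3 senescence markers were not called. In pooled rosettes, fewer cells of a type and less RNA per cell cannot be told apart, and the part of senescent tissue in these values was not tested.

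Of 27 jasmonate genes, 2 were higher and 5 lower in Cvi (25.9%, against 19.3% of all genes counted in CA), with a graded median log2 fold change of -0.12. Among graded genes alone the shares were 18.2% and 17%. Leaving out a library set the higher count at 1 (Cvi replicate 3, Sha replicate 2 or Sha replicate 3) or 4 (Sha replicate 1), and the replicate block set it at 5. CORI3, a cystine lyase induced by coronatine and jasmonate, had 587, 671 and 616 CPM in Cvi against 141, 119 and 126 CPM in Sha (log2 fold change 2.28 ± 0.31, edgeR adjusted p = 8.08e-10). TAT3, a tyrosine aminotransferase, had 6.08, 2.36 and 6.36 CPM in Cvi against 42.3, 10.3 and 40 CPM in Sha, and fell by 2.64 on the log2 scale in the opposite direction to CORI3. The plant defensin PDF1.2, the usual marker of joint jasmonate and ethylene signalling, had 0.0941, 0.0773 and 0.741 CPM in Cvi against 16.8, 1.6 and 4.12 CPM in Sha (edgeR adjusted p = 1.35e-05). Its close copy PDF1.2c had 0, 0 and 0.0436 CPM in Cvi against 7.35, 0.0727 and 2.03 CPM in Sha (edgeR adjusted p = 7.84e-06). In the 3 genes that were lower, replicate 2 of Sha was again the lowest Sha library.

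Glucosinolates are sulfur-rich defence compounds of the cabbage family, made from methionine (aliphatic) or tryptophan (indolic) and split by myrosinase when tissue is damaged. Of 36 genes of glucosinolate synthesis, 2 were higher and 10 lower in Cvi (33.3%), and the higher count was 1 without Cvi replicate 2 or Sha replicate 3 and 6 without Sha replicate 2. AOP3 (AT4G03050, chromosome 4, 1343845 to 1346436), which turns methylsulfinylalkyl into hydroxyalkyl glucosinolates, had 52.3, 56.9 and 49.1 CPM in Cvi against 0, 0.363 and 0.0344 CPM in Sha (log2 fold change 8.80 ± 0.61, edgeR adjusted p = 6.16e-145). Its neighbour AOP2, which makes the alkenyl form, averaged 1953.2 CPM in Cvi and 2047.4 CPM in Sha and was not called (-0.07 ± 0.30, edgeR adjusted p = 0.975). AOP3 was thus counted in every Cvi library and nearly without counts in Sha, while AOP2 was counted in both accessions.

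In the aliphatic path, MAM1, CYP79F2 (-1.28 ± 0.20) and AT2G25450 were lower in Cvi, while the enzymes BCAT4 (-0.14 ± 0.25), CYP79F1 (0.11 ± 0.25) and CYP83A1 (0.19 ± 0.28) and the regulators MYB28 (-0.03 ± 0.19), MYB29 (0.19 ± 0.22) and MYB76 (0.52 ± 0.26) were not called. MAM1, which adds carbon to methionine, had 634, 778 and 588 CPM in Cvi against 1164.3, 1978.0 and 1117.7 CPM in Sha (log2 fold change -1.09 ± 0.25, edgeR adjusted p = 0.00127). AT2G25450, which makes the 2-hydroxybut-3-enyl form, had 4.86, 12.4 and 7.19 CPM in Cvi against 40.8, 50.4 and 44.8 CPM in Sha (-2.48 ± 0.34, edgeR adjusted p = 1.12e-09). IMS2 was the second higher gene, with 142, 160 and 127 CPM in Cvi against 81.3, 93.4 and 47.7 CPM in Sha (0.95 ± 0.27), a call lost without Cvi replicate 2 (edgeR adjusted p = 0.0567) and without Sha replicate 3 (edgeR adjusted p = 0.135). In the indolic path, the regulator MYB34 was lower, while MYB51, another regulator (-0.67 ± 0.37, edgeR adjusted p = 0.272), and the modifying enzymes CYP81F2 (0.31 ± 0.41) and CYP81F4 (-1.11 ± 0.61) were not called. MYB34 had 8.15, 4.95 and 5.93 CPM in Cvi against 40.2, 22.5 and 33.3 CPM in Sha (fell by 2.33 on the log2 scale, edgeR adjusted p = 3.67e-12). CYP79B3, which opens the path from tryptophan, had 18.8, 22.0 and 20.3 CPM in Cvi against 87.6, 31.5 and 63.8 CPM in Sha (fell by 1.58, edgeR adjusted p = 8.67e-04).

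On the side of breakdown, 2 of 13 genes were higher and 2 lower (30.8%), and each count was 1 without Cvi replicate 3 and also, for the higher genes, without Sha replicate 2 and, for the lower genes, without Cvi replicate 1, Sha replicate 1 or Sha replicate 3. ESP (AT1G54040, chromosome 1, 20170715 to 20173949), the epithiospecifier protein that steers breakdown toward nitriles, had 4391.5, 3592.4 and 3592.3 CPM in Cvi against 937, 966 and 734 CPM in Sha (log2 fold change 2.13 ± 0.28, edgeR adjusted p = 1.40e-10). PBP1, a PYK10-binding protein, was the other higher gene (1.03 ± 0.30). MVP1, a GDSL lipase-like protein, had 17.8, 20 and 19.2 CPM in Cvi against 38.8, 31.6 and 34.1 CPM in Sha (-0.87 ± 0.16). ESM1, which works against nitrile formation, had 24.9, 30.9 and 29.3 CPM in Cvi against 63.1, 34.1 and 58.5 CPM in Sha (-0.87 ± 0.26), a call lost without Cvi replicate 1, Cvi replicate 3, Sha replicate 1 or Sha replicate 3 (edgeR adjusted p = 0.105, 0.0573, 0.107 and 0.0631). NIT1, a nitrilase outside this list that converts nitriles, had 542, 541 and 471 CPM in Cvi against 1463.8, 1694.1 and 1555.6 CPM in Sha (-1.60 ± 0.21). ESP and NIT1 lay in clearly separate ranges in the accessions, in opposite directions.

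Other families of specialised metabolism were split. Cytochrome P450 enzymes had 23 of 206 members higher and 32 lower (26.7%, against 19.3% of all genes counted in CA), and terpene synthases and cyclases had 7 of 38 higher and 11 lower (47.4%). Only 9 of the 38 terpene genes were graded, with 3 higher and 3 lower, so most of these calls were of genes with few counts in an accession. The terpene synthase gene AT5G48110 had 7.56, 16.8 and 11.7 CPM in Cvi against 0.181, 0 and 0.0344 CPM in Sha (edgeR adjusted p = 9.32e-39). LUP5, a triterpene synthase, had 0.376, 0.271 and 0.479 CPM in Cvi against 15.5, 12.4 and 19.8 CPM in Sha (log2 fold change -5.40 ± 0.39, edgeR adjusted p = 2.86e-40). UDP-glycosyltransferases, which attach sugars to small molecules, had 9 of 126 members higher and 20 lower (23%, against the same 19.3%), with 12 lower without Cvi replicate 1. UGT71D1 was higher (2.62 ± 0.32), as was CYP81D5 (1.96 ± 0.21). Jacalin-related lectins, which bind sugars, had 12 of 34 members higher and 4 lower (47.1%). Only 11 of these lectin genes were graded, with 3 higher and 2 lower (45.5%, against 17% of all graded genes). The other calls were of members with at most 3 counts in at least 1 library. AT1G52000, a lectin of this family, had 310, 316 and 239 CPM in Cvi against 99.8, 41.3 and 74.4 CPM in Sha (2.01 ± 0.39).

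Of 29 genes of phenylpropanoid, flavonoid and anthocyanin synthesis, 2 were higher and 8 lower in Cvi (34.5%), with a graded median log2 fold change of -0.71. The lower count was 5 without Sha replicate 1, and the higher count was 1 without Cvi replicate 1, Sha replicate 1 or Sha replicate 3. DFR, the first enzyme committed to anthocyanins, had 3.54, 1.16 and 2.0 CPM in Cvi against 22.2, 17.9 and 7.63 CPM in Sha (-2.82 ± 0.54, edgeR adjusted p = 3.13e-05). LDOX, the next enzyme of the path, had 6.68, 2.47 and 3.05 CPM in Cvi against 22.3, 17.4 and 9.21 CPM in Sha (-1.99 ± 0.52, edgeR adjusted p = 0.00324). Replicate 3 of Sha was the lowest Sha library for both genes and was still above all Cvi libraries. FLS1, the flavonol synthase, was lower (-1.39 ± 0.33), while GL3, a bHLH regulator, had 2.29, 1.47 and 1.44 CPM in Cvi against 0.544, 0.872 and 0.756 CPM in Sha (1.24 ± 0.41). The call of GL3 was lost without Cvi replicate 1 (edgeR adjusted p = 0.144), Sha replicate 1 (edgeR adjusted p = 0.0967) or Sha replicate 3 (edgeR adjusted p = 0.121).

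Glutathione S-transferases couple glutathione to reactive compounds and to stress metabolites. Of 47 members 3 were higher and 15 lower in Cvi (38.3%), with a graded median log2 fold change of -0.11. GSTU16 had 26.5, 30.1 and 24.4 CPM in Cvi against 4.72, 7.99 and 3.37 CPM in Sha (2.34 ± 0.39, edgeR adjusted p = 9.30e-07). GSTU8 had 0.125, 0.0387 and 0.218 CPM in Cvi against 5.8, 1.38 and 4.4 CPM in Sha (-4.88 ± 0.65, edgeR adjusted p = 7.92e-13). GSTF6 had 33.8, 30.9 and 58.7 CPM in Cvi against 154, 67.3 and 144 CPM in Sha (-1.57 ± 0.32, edgeR adjusted p = 9.53e-05). Replicate 2 of Sha was the lowest Sha library for GSTU8 and GSTF6, without reaching any Cvi library, and GSTU4 (-3.43 ± 0.44) and GSTU3 showed the same order.

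Antioxidant enzymes and ascorbate synthesis, of interest because O3 acts through reactive oxygen species, had 8 of 42 genes higher and 4 lower in Cvi (28.6%), with a graded median of 0.37. The higher count was 4 without Cvi replicate 1 or Cvi replicate 3 and 5 without Cvi replicate 2. Catalases, which break down hydrogen peroxide in peroxisomes, differed among themselves. CAT2, the most abundant, averaged 2158.0 CPM in Cvi and 2131.1 CPM in Sha and was not called (0.02 ± 0.32, edgeR adjusted p = 1). CAT3 (AT1G20620, chromosome 1, 7142972 to 7146540) had 1105.7, 2069.2 and 1386.5 CPM in Cvi against 57, 63.8 and 60.9 CPM in Sha (log2 fold change 4.65 ± 0.23, edgeR adjusted p = 2.54e-59). All its 31-base words were its own in Col-0. CAT1 had 37.6, 49.8 and 45.4 CPM in Cvi against 66.9, 81.3 and 71.9 CPM in Sha and fell by 0.73 on the log2 scale (edgeR adjusted p = 0.0033). The accessions did not overlap for CAT3 or CAT1, and the directions were opposite.

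CSD1 and CSD2, copper/zinc superoxide dismutases that convert superoxide to hydrogen peroxide, were lower, and CSD3 was not called (0.28 ± 0.14). CSD1, in the cytosol, had 102, 51.9 and 49.5 CPM in Cvi against 180, 252 and 140 CPM in Sha (fell by 1.49 on the log2 scale, edgeR adjusted p = 0.00228). CSD2, in the chloroplast, had 200, 64.9 and 83.6 CPM in Cvi against 430, 404 and 258 CPM in Sha (fell by 1.65, edgeR adjusted p = 7.79e-04). Replicate 1 was the highest Cvi library for both. Of the dismutases with other metals, FSD2 (0.89 ± 0.28) and MSD1 (0.58 ± 0.15) were higher in Cvi and FSD1 (0.96 ± 0.42) and FSD3 (0.74 ± 0.37) were not called. Both calls were lost without any single Cvi library or without Sha replicate 2, and that of MSD1 also without Sha replicate 3 (edgeR adjusted p = 0.0506 to 0.126 for FSD2 and 0.0695 to 0.0921 for MSD1). VTC4, a phosphatase of ascorbate synthesis, had 82.1, 81.8 and 85.2 CPM in Cvi against 47.5, 38.4 and 45 CPM in Sha, higher by 0.93 (edgeR adjusted p = 1.39e-04). GPX7, a glutathione peroxidase, was lower (-2.55 ± 0.59), with 57.2% of its 31-base words its own.

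In flowering time, 7 of 34 genes were higher and 4 lower in Cvi (32.4%), with a higher count of 4 without Sha replicate 3 and a lower count of 2 without Sha replicate 2 and of 7 with the replicate block. FLC (AT5G10140, chromosome 5, 3173382 to 3179448), the repressor of flowering that vernalisation silences, had 26.6, 34.9 and 39.1 CPM in Cvi against 4.26, 3.63 and 3.47 CPM in Sha (log2 fold change 3.15 ± 0.61, edgeR adjusted p = 4.63e-05). SMZ, an AP2-type repressor, had 6.18, 2.9 and 3.88 CPM in Cvi against 0.725, 0.436 and 0.756 CPM in Sha (2.72 ± 0.41), with 73.8% of its 31-base words its own. The FLC relatives were split. MAF3 had 2.42, 2.63 and 3.27 CPM in Cvi against 9.16, 12.0 and 10.4 CPM in Sha (-1.94 ± 0.20), whereas MAF5 (1.81 ± 0.44) was higher. AGL31, also called MAF2, had 35.9, 39.2 and 34.0 CPM in Cvi against 22.8, 23.3 and 21.7 CPM in Sha (0.69 ± 0.14), a call lost without Sha replicate 3 (edgeR adjusted p = 0.0631). Promoters of flowering were found on both sides, with AGL24 (-0.76 ± 0.17) lower and FT (2.50 ± 0.96) higher, and the repressor SVP (-0.82 ± 0.22) was lower. FT was at most 0.721 CPM in any library, and its call was lost with the replicate block (edgeR adjusted p = 0.0585) and without Cvi replicate 1 or 2 or Sha replicate 1 or 3 (edgeR adjusted p = 0.0836 to 0.173). AGL20, also called SOC1 and a promoter, was lower (-0.98 ± 0.33), a call lost without Cvi replicate 1 or 3 or Sha replicate 2 or 3 (edgeR adjusted p = 0.051 to 0.159). The call of SVP was lost without Cvi replicate 3 (edgeR adjusted p = 0.0677) and Sha replicate 2 (edgeR adjusted p = 0.0694).

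Flower organ markers were low in both accessions and lower in Cvi. They summed to 0.471, 1.04 and 0.697 CPM in Cvi against 7.53, 13.9 and 10.8 CPM in Sha, and 4 of 6 were called. AG, which specifies stamens and carpels, had 0.0314, 0.271 and 0.305 CPM in Cvi against 3.63, 7.41 and 4.74 CPM in Sha (-4.73 ± 0.59, edgeR adjusted p = 1.66e-13). SEP3, its partner, had 0.282, 0.425 and 0.218 CPM in Cvi against 3.26, 4.94 and 4.64 CPM in Sha (-3.78 ± 0.37, edgeR adjusted p = 2.71e-25). All Sha libraries carried AG and SEP3 transcripts and the Cvi libraries hardly any. AP1, also called, had 0.0314, 0 and 0 CPM in Cvi against 0, 0.291 and 0.309 CPM in Sha, with overlap. AP3 and LFY were not called, and the part of early flower tissue in the other differences was not tested.

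Several genes known for differences among accessions did not pass the test here. The photoreceptor CRY2 averaged 65.4 CPM in Cvi and 65.5 CPM in Sha (log2 fold change -0.00 ± 0.18, edgeR adjusted p = 1). FRI, the activator of FLC, averaged 6.97 CPM in Cvi and 5.81 CPM in Sha (0.28 ± 0.17, edgeR adjusted p = 0.49), and MPK12, a guard cell kinase, 16 CPM in Cvi and 12.0 CPM in Sha (0.41 ± 0.22, edgeR adjusted p = 0.33). ERECTA (ER, -0.24 ± 0.15), HUA2 (0.24 ± 0.17) and CBF2 (-0.16 ± 0.71) were not called either. These values are counts of reads assigned to the Col-0 transcript set and do not describe the sequence of the genes in either accession.

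Abscisic acid closes stomata and is made and degraded in the leaf. Of 44 genes of abscisic acid and stomata, 7 were higher and 1 lower in Cvi, 18.2% against 19.3% of all genes counted in CA, with 4 higher without Sha replicate 3, 2 lower without Cvi replicate 1, 2 or 3 or Sha replicate 1 or 2, and 3 lower with the replicate block. NCED3, the rate-limiting enzyme of its synthesis under drought, had 5.33, 10.8 and 6.71 CPM in Cvi against 2.09, 2.11 and 2.37 CPM in Sha (fitted log2 difference 1.78, edgeR adjusted p = 4.62e-08). CYP707A2, which inactivates the hormone, was higher by 1.21 (edgeR adjusted p = 8.59e-04). AAO3, the last enzyme of synthesis, had 17.0, 23.0 and 18.9 CPM in Cvi against 29.1, 42.7 and 35.2 CPM in Sha (-0.86 ± 0.19). The NADPH oxidase gene RBOH F, a source of signalling superoxide, had 30.9, 34.6 and 30.6 CPM in Cvi against 16.1, 15.8 and 15.1 CPM in Sha, higher by 1.03 (edgeR adjusted p = 6.65e-05). LTI65, a target of the hormone, had 0.878, 1.55 and 3.44 CPM in Cvi against 0.272, 0.436 and 0.721 CPM in Sha (1.93 ± 0.59), a call lost without Cvi replicate 3 (edgeR adjusted p = 0.132) and Sha replicate 1 (edgeR adjusted p = 0.0622). Of 4 guard cell markers 1 was called, MYB60, with 10.2, 11.3 and 12.7 CPM in Cvi against 18.5, 20 and 19.9 CPM in Sha (-0.78 ± 0.20), lost without Cvi replicate 1 (edgeR adjusted p = 0.0556).

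Cold acclimation genes protect membranes and proteins against freezing, and 3 of 14 were higher and 2 lower in Cvi (35.7%), with 1 lower without Cvi replicate 2 or Sha replicate 3. KIN1 had 7.78, 9.4 and 7.49 CPM in Cvi against 0, 0.0727 and 0.137 CPM in Sha (log2 fold change 6.4 ± 0.69, edgeR adjusted p = 4.87e-43). COR15A, a chloroplast protein that stabilises membranes, had 26.1, 47.1 and 52.8 CPM in Cvi against 13.1, 14.3 and 8.76 CPM in Sha (1.81 ± 0.29). COR413-PM1 had 48.8, 67.5 and 66.8 CPM in Cvi against 118, 130 and 127 CPM in Sha (-1.03 ± 0.16). The Cvi libraries were apart from the Sha libraries for all 3 genes, upward for KIN1 and COR15A and downward for COR413-PM1.

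The circadian clock had the lowest share of calls of all lists of pathways and families, with 0 of 22 genes higher and 1 lower (4.55%, edgeR). At an unadjusted p under 0.05 there were 2 higher genes, DESeq2 called 0 higher and the replicate block gave 1 higher. The gene was GRP7, an RNA-binding protein driven by the clock, with 16.4, 20.6 and 32.2 CPM in Cvi against 50.9, 42 and 50 CPM in Sha (-1.05 ± 0.24, edgeR adjusted p = 9.57e-04). Photosystem and light-harvesting genes had 4 of 57 members higher and 0 lower (7.02%, edgeR), with 1 lower at an unadjusted p under 0.05, 0 lower by DESeq2 and a graded median log2 fold change of 0.29. Without a minimum change, or with a filter on low counts before the fit, edgeR called 1 of them as lower. The higher count was 2 without Cvi replicate 1, Cvi replicate 2 or Sha replicate 3, and 7 with the replicate block. LHCB6, a minor antenna protein of photosystem II, had 5825.8, 6303.7 and 5266.6 CPM in Cvi against 3045.2, 3075.1 and 2927.8 CPM in Sha (0.94 ± 0.22, edgeR adjusted p = 0.00187). LHCB2.2, of the major antenna, had 4697.3, 5593.9 and 4281.0 CPM in Cvi against 2237.8, 2395.5 and 2148.0 CPM in Sha (1.1 ± 0.22), with 60.6% of its 31-base words its own.

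Ribosomal protein genes had 40 of 333 members higher and 6 lower in Cvi (13.8%), with a graded median of 0.36. Their summed level was 47390, 38270 and 48230 CPM in Cvi against 44760, 20660 and 36760 CPM in Sha, so that replicate 2 of Sha was the low library and the accessions overlapped. The higher count was 25 without Cvi replicate 3, 26 without Sha replicate 2 and 70 with the replicate block, and the lower count was 10 without Sha replicate 2. Ribosomal RNA itself was lower in Cvi, with 1607.2, 1546.9 and 3371.6 CPM of the 5.8S gene AT3G41979 in Cvi against 3983.8, 29999.8 and 16088.2 CPM in Sha (-2.94 ± 0.51, edgeR adjusted p = 2.83e-06). The 18S gene AT3G41768 had 1399.4, 1301.1 and 2662.7 CPM in Cvi against 1960.9, 7955.7 and 5102.2 CPM in Sha (-1.49 ± 0.44), with overlap. Its call was lost without Cvi replicate 1 (edgeR adjusted p = 0.0872), Cvi replicate 2 (edgeR adjusted p = 0.0902) or Sha replicate 2 (edgeR adjusted p = 0.147). The libraries were made by selection of mRNA, from which ribosomal RNA is largely removed, and whether the removal differed between libraries was not tested.

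Other gene families were called in 16 to 27.9% of their members, against 19.3% of all genes counted in CA. F-box proteins, which mark other proteins for degradation, had 52 of 381 members higher and 31 lower (21.8%), and TRAF-like proteins had 9 of 57 higher and 4 lower (22.8%). The TRAF-like gene AT2G32880 had 47.6, 60.6 and 52.9 CPM in Cvi against 0.181, 0.509 and 0.344 CPM in Sha (log2 fold change 7.23 ± 0.38, edgeR adjusted p = 3.22e-128), while AT2G04170 of the same family was lower (-3.48 ± 0.30). Heat shock proteins had 7 of 72 higher and 6 lower (18.1%), with HSP70 lower (-1.30 ± 0.31). Expansins and XTH enzymes, which loosen cell walls, had 6 of 50 higher and 2 lower (16%), the lower count being 4 without Sha replicate 2, and SAUR genes of the auxin response had 8 of 73 higher and 4 lower (16.4%), the higher count being 5 without Cvi replicate 1. XTH19 (3.25 ± 0.76) and SAUR26 (1.81 ± 0.38) were higher and EXLA1 (-2.02 ± 0.33) and SAUR36 (-1.30 ± 0.31) lower. Pseudogenes had 291 of 2074 members higher and 287 lower (27.9%).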

How the data were processed

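RNA-seq of whole rosettes was analysed for 3 libraries of Cvi and 3 of Sha in CA. The authors trimmed the reads with Trimmomatic 0.33 and assigned them with kallisto to the AtRTD2 transcript set, which rests on Col-0, and deposited estimated counts per gene locus, averaged over repeated runs and not normalised. Of these deposited values 69.42% were not whole (tolerance 1e-06), and all were rounded to whole counts. The table has 6 further columns that were left aside because no sample given here matches them.

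After 5663 of the 34212 loci, those without any count, were removed, edgeR 4.0.16 (R 4.3.3) fitted the 12 libraries of the series together with 1 mean per group and TMM size factors. The contrast was tested with glmTreat in its likelihood-ratio form, against a 1.2-fold change, with Benjamini-Hochberg adjustment over 28549 genes. The study's methods give a likelihood-ratio test and its text a minimum on the log2 scale, so a log2 minimum of 1.2 and no minimum were alternatives. P-values rest on the spread between pools of 4 rosettes within each group of the series, O3 groups included. Without a replicate block, this spread takes in deviations shared by libraries of the same replicate number. With all libraries of an accession at 0, the fold was taken against 3 counts in each library and is a lower bound that covers counting error only, as copies made by PCR were not told apart. These 3 counts were 0.0941 to 0.131 CPM in Cvi and 0.103 to 0.272 CPM in Sha. The library kit kept the strand, but how the counting handled it is not given in the sources used here, so genes that overlap or have copies are uncertain.

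Symbols, coordinates and sequences are from RefSeq (TAIR10.1), which matched 26576 of the 26862 genes counted in CA by locus. The rule for named genes took 100 genes. They were the 8 protein-coding genes with the highest level among those without a count in an accession, the 8 protein-coding graded genes with the largest fold change, without overlap, and the 4 graded genes with the largest difference in CPM, each per direction. Added were the called gene with the largest change of each list in each direction, a set of genes known for natural variation and the members of the longest runs of neighbouring genes without a count. Other genes were named after their values were seen. The members of the comparison and the gene lists were chosen with earlier results of these data known. Libraries with the same Roman numeral in their titles deviated together from their group means (r = 0.331, 0.493 and 0.277 over 18477 genes), so a replicate block was fitted as an alternative. Further alternatives were the quasi-likelihood form of the test, DESeq2 1.42.0, other size factors, filters and thresholds, the CA libraries alone, removal of organelle genes and leaving out each library. The models were tested on simulated counts.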

Additional observations from a re-analysis of the deposited data

How the results depend on the processing

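No gene called in an alternative fit was called there in the opposite direction. A minimum log2 change of 1.2 in place of a 1.2-fold change gave 963 higher and 990 lower genes, 253 and 329 of them graded, and no minimum gave 3297 and 3414. DESeq2 gave 1563 higher and 1818 lower genes (932 higher among the graded), the quasi-likelihood form 2076 and 2190, and a filter on low counts before the fit (filterByExpr) 2035 and 2800, where 42.1% of the calls were higher. Counting up to 3 counts per library as no count gave 178 genes for Sha and 126 for Cvi, and asking for 2 CPM in place of 1 gave 58 and 31. Without each library in turn the numbers were 1823 to 2352 higher genes and 2150 to 2593 lower genes. The genes without a count numbered 96 to 122 for Sha and 63 to 76 for Cvi. This rise is nearly fixed by their definition, which then asks for fewer libraries. The chloroplast-encoded share of counts in CA (Cvi minus Sha) lay at -0.928 to -0.362 percentage points. With the replicate block 2831 genes were higher and 2890 lower, 98.7% of the calls made without it were kept, and it changed no call of the 100 named genes. TIP2;3 and FT, outside these 100, lost their calls with it. The share of calls kept was 65.3% under DESeq2, 37.8% at a log2 minimum of 1.2 and 77 to 87.9% without a library. Of the 100 named genes, 19 lost the call at a log2 minimum of 1.2, 5 under DESeq2 and 1 in the quasi-likelihood form. Of 66 counts of list members, an alternative added after seeing the data, the log2 minimum of 1.2 moved 45 downward by over 1.5 times and DESeq2 23. Depth limits the Sha libraries most, where 3 counts are 0.272 CPM in the smallest.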
